A study of Mus musculus with 4 samples.

Results

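The transcripts of 10 glycolytic enzyme genes, Hk1, Hk2, Gpi1, Pfkl, Pfkm, Aldoa, Pgk1, Eno1, Pkm and Ldha, were compared in retinal RNA of wild-type and Foxn3-deficient mouse embryos. The genes were selected by symbol, and the 10 symbols matched 11 of 18471 gene entries, because Aldoa stands under 2 identifiers. All 11 entries passed the filter on low counts. Retinas were taken from single genotyped embryos at embryonic day 19, and 2 libraries were labelled wild-type and 2 Foxn3KO (genotype Foxn3-/-). The knockout embryos came from the line C57BL/6NJ-Foxn3em1(IMPC)Bay/Mmnc, in which exon 3 of Foxn3, a forkhead transcription factor gene, is deleted. The allele is a single deletion in 1 line, no second agent or transgene is named, and embryo sex and litter are not stated in the labels. Whole retina was used, so fewer cells of a type and less RNA per cell cannot be told apart.

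Glycolysis breaks glucose down to pyruvate. Hexokinase traps glucose as its phosphate, phosphofructokinase makes the committed step, aldolase splits the sugar, and phosphoglycerate kinase and pyruvate kinase return ATP. Lactate dehydrogenase turns pyruvate into lactate and so restores the NAD+ that the pathway consumes. The retina is known for making lactate even in oxygen, and dividing progenitors and photoreceptors both rely on this. Foxn3 has been linked to glucose metabolism in liver, while the study itself concerns Foxn3 and primary cilia.

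Foxn3 itself had 98.7 ± 1.55 CPM (counts scaled by library size, SD, n = 2) in the wild-type libraries and 144 ± 0.108 CPM (SD, n = 2) in the libraries labelled Foxn3KO, higher by 0.54 on the log2 scale (SE 0.046, edgeR adjusted p = 7.80e-08). Counts for the whole gene do not resolve exon 3 and so do not check the labels, and every direction below rests on them. Total counts ranged from 22543531 to 29360129 per library. Xist was at 3350 CPM in wild-type replicate 1 and at 0.402 to 0.652 CPM in the other 3 libraries, and the Y-linked Ddx3y, Uty, Kdm5d and Eif2s3y had 0 counts there and at least 641 counts elsewhere, so this library stands apart in sex pattern. The 10 retinal progenitor markers summed to 6938 and 7246 CPM in wild-type and to 6595 and 6622 CPM in Foxn3KO libraries, so the tissue carried the markers of its label. Ccnd1 alone had a mean of 3410 CPM. The 9 lens markers found summed to 4.68 and 74.0 CPM in wild-type and to 248 and 249 CPM in Foxn3KO libraries, and the 8 tested pigment epithelium markers to 89.3 and 118 against 72.6 and 73.7 CPM. Of the 10 photoreceptor precursor markers 5 were called higher and 0 lower, with sums of 1293 and 1279 against 1365 and 1361 CPM. Of the 10 progenitor markers 2 were called higher and 3 lower. As a background, 12.3% of the 17300 tested genes gave a higher call and 9.66% a lower call. For genes at least as abundant as Hk2, the share with a higher call was 17.1%. The part of these marker shifts in the results below was not tested, except where a library was left out.

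Glycolytic enzyme transcripts differed little between the genotypes. Of the 11 entries, 2 were higher in the libraries labelled Foxn3KO, Pfkl and Ldha, each by about 11%, and 0 were lower (edgeR quasi-likelihood test, Benjamini-Hochberg adjusted p under 0.05 over 17300 tested genes). The other 9 did not pass. Across all tested genes 21.9% were called, 12.3% higher and 9.66% lower, and among the 5808 genes at least as abundant as Hk2, 31.2% were called and 17.1% were called higher. The share of the 11 entries called was 18.2%, all of it higher. It lay below the 21.9% and 31.2% called in either direction and above the 12.3% and 17.1% called higher. Both Foxn3KO libraries lay above both wild-type libraries for 6 entries and below them for 0, and the groups overlapped for 5. Among all tested genes, 60.4% had groups that did not overlap, 29.9% higher and 30.5% lower. The median log2 fold change was 0.050 over the 11 entries and -0.0047 over all tested genes. For 10 of the 11 entries the whole 95% interval lay within 0.25 on the log2 scale to either side of 0. The exception was the second Aldoa entry, which had few counts.

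Per transcript length, the enzymes spanned a wide range of levels. On the authors' FPKM scale (fragments scaled by transcript length and library size), the means over the 4 libraries were 462 for Pkm, 396 for Ldha, 230 for Aldoa, 200.2 for Eno1 and 171 for Pgk1. The order went on with Gpi1 at 72.3, Pfkl at 47.7, Pfkm at 24.1, Hk1 at 13.0 and Hk2 at 8.004 FPKM. The ranges of neighbours in this order of the 10 genes, with Aldoa under its first identifier, did not overlap in the 4 libraries, and the first exceeded the last 57.8-fold. Pkm and Ldha, which close the pathway, were thus the most abundant of the 10 genes, and Hk1 and Hk2, which open it, the least. The second Aldoa entry had 9.74 to 12.04 FPKM, a range that overlapped that of Hk1 (11.7 to 13.8 FPKM) and lay above that of Hk2. Pkm and Ldha ranked 28 and 41 among all tested genes by FPKM, and Hk2 ranked 6779. Together the 11 entries took 0.681% and 0.664% of the counts in the wild-type libraries and 0.689% and 0.687% in the libraries labelled Foxn3KO.

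**Figure D1:**
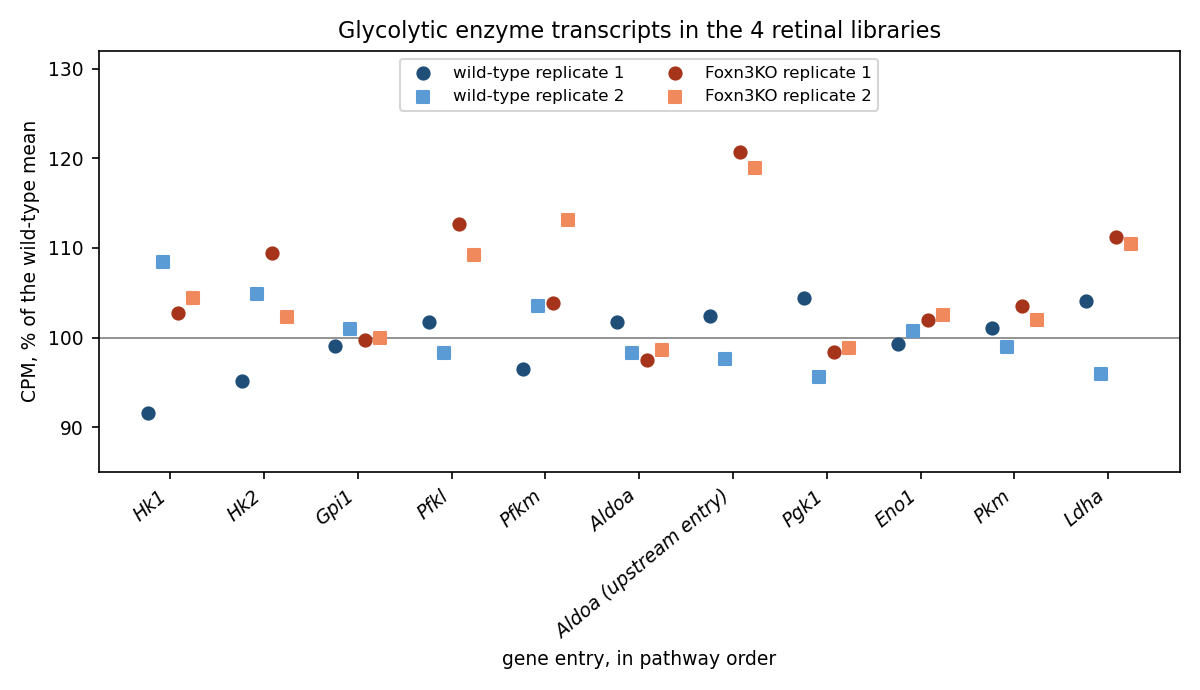
CPM of each glycolytic enzyme entry (vertical axis, percent of the wild-type mean of that entry) in the 4 libraries, one point per library; circles are replicate 1 and squares replicate 2. Both Foxn3KO libraries lie above both wild-type libraries for Pfkl, Pfkm, the upstream Aldoa entry, Eno1, Pkm and Ldha, and the groups overlap for the other 5 entries.

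At the entry to the pathway, neither hexokinase gene among the members, Hk1 or Hk2, passed the test. The hexokinase-like gene Hkdc1, not a member, was called higher, as given below. Its mean over the 4 libraries was 122 CPM, above Hk1 with 111 CPM and Hk2 with 47.9 CPM. Hk1, the housekeeping isozyme of brain and retina, had 99.97 and 118 CPM in wild-type and 112 and 114 CPM in Foxn3KO libraries, so both Foxn3KO values lay between the wild-type ones. Its log2 fold change was 0.050 (95% interval -0.082 to 0.18, edgeR adjusted p = 0.622). With wild-type replicate 1 left out the sign turned to -0.065. With wild-type replicate 2 left out the gene was called higher, at 0.18 (edgeR adjusted p = 0.00133). Hk2, the inducible isozyme that photoreceptors use, had 44.3 and 48.8 CPM in wild-type and 51.0 and 47.6 CPM in Foxn3KO libraries. Its groups overlapped too, with a log2 fold change of 0.083 (95% interval -0.053 to 0.22, edgeR adjusted p = 0.405).

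Gpi1, which converts glucose 6-phosphate to fructose 6-phosphate, had the smallest change. Its 464 and 473 CPM in wild-type enclosed the 467 and 468 CPM of the Foxn3KO libraries. The log2 fold change was -0.0020 and its interval allowed a change between -5.74% and 5.80% (edgeR adjusted p = 0.982).

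Phosphofructokinase is the step with the main control over flux, and its liver-type subunit gene Pfkl was one of the 2 members called. Pfkl had 308 and 298 CPM in wild-type and 342 and 331 CPM in Foxn3KO libraries. The groups did not overlap, and the replicates of each lay within 0.049 of each other on the log2 scale. The mean of 336 ± 7.40 CPM exceeded the wild-type 303 ± 7.21 CPM (SD, n = 2) by 10.9%, with an interval from 4.38% to 17.9%. On the log2 scale the change was 0.15 with an SE of 0.042 (edgeR adjusted p = 0.0152). The muscle-type subunit gene Pfkm had 74.7 and 80.2 CPM in wild-type and 80.4 and 87.6 CPM in Foxn3KO libraries. Its groups were apart by only the gap between 80.2 and 80.4, and it did not pass (log2 fold change 0.12, SE 0.057, edgeR adjusted p = 0.162). Without wild-type replicate 2 it was called at 0.16 (edgeR adjusted p = 0.0104).

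Aldoa, the main aldolase of brain and muscle, had 689 and 665 CPM in wild-type and 660 and 668 CPM in Foxn3KO libraries under its first identifier (ENSMUSG00000030695). The groups overlapped, and the interval of the change ran from -7.48% to 3.94% (edgeR adjusted p = 0.672). The second identifier (ENSMUSG00000114515) had 203 and 212 counts in wild-type and 281 and 213 in Foxn3KO libraries, or 8.19 and 7.80 against 9.65 and 9.51 CPM. In GENCODE M21 this entry is a separate locus just upstream of the first on the same strand, with protein-coding transcripts beside others marked for nonsense-mediated decay. How the authors' annotation drew it is not given in the sources used here. Its groups did not overlap, yet its log2 fold change of 0.26 did not pass (SE 0.12, edgeR adjusted p = 0.135). Its fold change was the furthest from 0 of the 11 entries. The 3 genes nearest to it in centred log2 CPM over the 4 libraries, among 10835 candidates, were Tmem185a, Rnd2 and Strbp. They differed from it by a root mean square of 0.0031, 0.0054 and 0.0058, with a small constant added to each CPM before the logarithm. With 4 values per gene and that many candidates, such closeness cannot show a shared regulation, which was not tested.

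Pgk1, the first ATP-yielding enzyme, is encoded on the X chromosome, where wild-type replicate 1 differs from the other libraries in Xist. Wild-type replicate 1 had 404 CPM, wild-type replicate 2 had 370 CPM, and the Foxn3KO pair had 381 and 383 CPM. The library with high Xist was thus the highest and the other wild-type library the lowest. This order was not particular to Pgk1. Among enzymes outside the members, Tpi1 shared it, with 824 and 745 CPM in wild-type and 786 and 776 CPM in Foxn3KO libraries. Aldoc shared it too, while Gapdh, Pgam1 and Ldhb did not. A part of X linkage in the order was not tested. The log2 fold change of Pgk1 was -0.021 (95% interval -0.12 to 0.075, edgeR adjusted p = 0.798). Leaving out the library with high Xist gave 0.046 (edgeR adjusted p = 0.319). Leaving out the other wild-type library gave -0.083, where Pgk1 was called lower (edgeR adjusted p = 0.0338).

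Eno1 and Pkm, the enolase and the pyruvate kinase of most tissues, did not pass despite groups that were apart. Eno1 had 1061 and 1076 CPM in wild-type and 1089 and 1095 CPM in Foxn3KO libraries. Pkm had 2313 and 2264 CPM in wild-type and 2370 and 2334 CPM in Foxn3KO libraries. For both, the Foxn3KO libraries were above the wild-type ones without overlap, as were 29.9% of all tested genes. The changes were 2.22% for Eno1 (interval -3.41% to 8.19%, edgeR adjusted p = 0.616) and 2.76% for Pkm (interval -3.06% to 8.92%, edgeR adjusted p = 0.536). Gene counts do not separate the M1 and M2 splice forms of Pkm.

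Ldha, the subunit that favours lactate formation, was the other member called. It had 1299 and 1198 CPM in wild-type and 1389 and 1378 CPM in Foxn3KO libraries. The groups did not overlap, but the wild-type libraries differed by more from each other than wild-type replicate 1 did from either Foxn3KO library. The mean of 1384 ± 7.58 CPM exceeded the wild-type 1248 ± 72.1 CPM (SD, n = 2) by 10.8%, with an interval from 3.95% to 18.1%. On the log2 scale the change was 0.15 with an SE of 0.044 (edgeR adjusted p = 0.0211). The choice of wild-type library moved its size: the change was 0.091 with replicate 2 left out and 0.21 with replicate 1 left out, both called. Ldha lost its call in the earlier edgeR quasi-likelihood fit (adjusted p = 0.0585).

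With either Foxn3KO library left out, both calls were lost, while the fold changes moved little. Pfkl kept log2 fold changes of 0.13 and 0.17 without Foxn3KO replicate 1 and 2, and Ldha kept 0.14 and 0.16. In such fits the spread within a group comes from the wild-type pair alone. That pair had a median log2 gap of 0.062 over the genes at least as abundant as Hk2, against 0.037 for the Foxn3KO pair. In the authors' deposited table the adjusted p was 0.0160 for Pfkl and 0.0119 for Ldha, and at least 0.353 for each other entry. For comparison, 49.2% of tested genes had a larger absolute log2 fold change than Pfkl, and 4.64% of the called genes had one no larger than that of Pfkl.

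**Figure D2:**
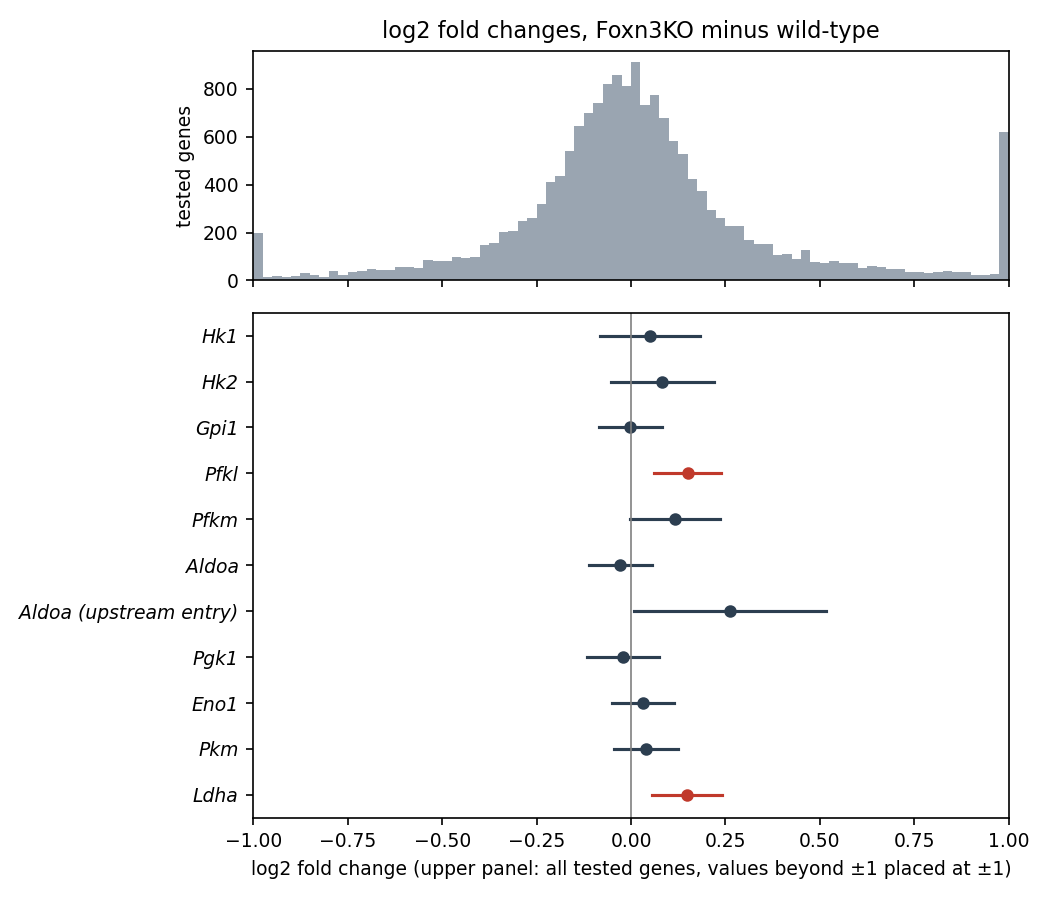
Lower panel: log2 fold change of each entry (Foxn3KO minus wild-type) with its 95% interval, with called entries in red. Upper panel: number of tested genes per log2 fold change on the same axis; all 11 entries lie between -0.028 and 0.26, and the end bars of the histogram hold values beyond -1 and 1.

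The wild-type libraries differed from each other more than the Foxn3KO libraries did for 10 of the 11 entries. The gap between replicates had a median of 0.069 on the log2 scale in wild-type, from 0.021 for Eno1 to 0.24 for Hk1, and a median of 0.021 in Foxn3KO, from 0.0033 for Gpi1 to 0.12 for Pfkm. Over the genes at least as abundant as Hk2 these medians were 0.062 and 0.037. Wild-type replicate 1 was the higher of the wild-type pair for Pfkl, both Aldoa entries, Pgk1, Pkm and Ldha and the lower for Hk1, Hk2, Gpi1, Pfkm and Eno1. Near copies of the members took few reads: Eno1b, Gpi-ps, Ldha-ps2 and the antisense gene Hk1os had means of at most 1.31 CPM in either group. How reads shared with such copies were counted is not given in the sources used here.

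The upstream sequences of the 2 called members are shown with that of Pgk1, to set genes that were called beside one that was not. They are the 190 bases before a start site, from RefSeq on GRCm38.p6, which is not the build of the counts (mm39). The window of Ldha is chr7:46845614-46845803 on the plus strand, that of Pfkl chr10:78009808-78009997 on the minus strand and that of Pgk1 chrX:106186910-106187099 on the plus strand. Capitals mark CACGTG (the E-box read by Myc and Max), ACGTG (the core of the hypoxia response element, which overlaps the E-box), GTAAACA (a forkhead site) and GACGC (the second kind of site that Foxn3 can bind), on either strand.
Ldha: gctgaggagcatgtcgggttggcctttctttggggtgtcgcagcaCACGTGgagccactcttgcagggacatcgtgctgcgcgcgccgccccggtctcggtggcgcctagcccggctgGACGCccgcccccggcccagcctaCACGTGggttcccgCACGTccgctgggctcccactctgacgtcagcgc
Pfkl: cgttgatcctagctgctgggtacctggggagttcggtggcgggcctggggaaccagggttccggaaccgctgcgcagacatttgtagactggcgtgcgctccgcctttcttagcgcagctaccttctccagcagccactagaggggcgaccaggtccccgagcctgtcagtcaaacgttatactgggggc
Pgk1: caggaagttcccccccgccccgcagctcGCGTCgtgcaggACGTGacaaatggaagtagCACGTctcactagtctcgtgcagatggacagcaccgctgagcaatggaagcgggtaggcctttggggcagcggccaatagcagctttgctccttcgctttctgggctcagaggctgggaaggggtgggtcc

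The printed window of Ldha thus carried a pair of E-boxes, a further ACGTG and a GACGC, while that of Pfkl carried none of these motifs. Ldha has a second start site, not printed, whose 250 bases held a GACGC and none of the other motifs. Over the 250 bases before each of 32851 start sites, ACGTG was found in 16.6% of windows, GACGC in 22.6%, CACGTG in 6.02% and GTAAACA in 3.17%. All 10 members matched the table, with 20 start sites. Of these 20 windows, 8 held ACGTG, 5 held GACGC, 2 held CACGTG and 0 held GTAAACA. The windows are not independent: 2 Aldoa windows overlap and hold the same ACGTG site, and each CACGTG also counts as ACGTG. Counted by gene, with up to 4 windows each, ACGTG occurred in 6 members, GACGC in 4, CACGTG in 2 (Pfkm and Ldha) and GTAAACA in 0, which is not comparable with the shares of single windows. The called members shared none of these motifs in the windows searched. Of the members not called, Pgk1 held both ACGTG and GACGC, while Hk1 and Eno1 held none of the motifs in any window.

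Several isozymes that stand beside the members at the same steps were called. Of 13 tested enzymes on the list of other glycolytic enzymes and isozymes, 4 were called higher and 1 lower in Foxn3KO libraries, 38.5% in all, beside 21.9% of all tested genes and 31.2% of those at least as abundant as Hk2. Eno4, an enolase needed in the sperm tail, rose from 2.72 ± 0.257 to 31.2 ± 0.388 CPM (log2 fold change 3.52, edgeR adjusted p = 5.19e-14). Hkdc1, a hexokinase-like gene, rose by 0.27 (edgeR adjusted p = 0.000368) and Eno2, the neuronal enolase, by 0.18 (edgeR adjusted p = 0.0290). Bpgm, which makes bisphosphoglycerate, rose by 0.18 (edgeR adjusted p = 0.0164). Pfkp, the platelet-type phosphofructokinase, fell from 398 ± 48.6 to 284 ± 16.2 CPM (log2 fold change -0.49, edgeR adjusted p = 1.31e-05). Its log2 fold change was -0.36 without wild-type replicate 1. Eno2 lost its call with total count scaling, in DESeq2 and without either Foxn3KO library (edgeR adjusted p = 0.322 and 0.0639). Bpgm lost its call in DESeq2 and likewise without either Foxn3KO library (edgeR adjusted p = 0.163 and 0.110). Other enzymes of the trunk pathway did not pass: the log2 fold change was -0.0084 for Gapdh, -0.0066 for Tpi1, 0.044 for Pgam1, -0.11 for Aldoc and -0.0098 for Ldhb. The sign for Tpi1 depended on which wild-type library was kept: its log2 fold change was -0.078 if only replicate 1 stayed, and 0.070 if only replicate 2 did.

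The make-up of the enzyme families is given as shares of the family's FPKM. Pfkl took 45.8% and 46.6% of phosphofructokinase FPKM in wild-type and 52.6% and 51.6% in Foxn3KO libraries, and Pfkp 32.0% and 28.4% against 22.6% and 21.1%. The phosphofructokinase total was 97.95 ± 3.41 against 96.4 ± 0.790 FPKM, so its groups overlapped while the shares of Pfkl and Pfkp did not. Pfkm took 22.2% and 25.1% against 24.8% and 27.3%, with overlap. These statements turn on the length scaling: on counts, Pfkm took 9.16% and 10.8% against 11.2% and 12.7%, without overlap, and Pfkp took 53.1% and 49.0% of the wild-type family, above Pfkl with 37.8% and 40.1%.

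Eno1 held 88.5% and 89.0% of enolase FPKM in wild-type and 84.2% and 84.4% in Foxn3KO libraries, and Eno4 rose from 0.508% and 0.440% to 5.02% and 5.09%. Aldoa under its first identifier kept 93.8% to 94.8% of aldolase FPKM. Ldha made up 85.2% and 83.3% of lactate dehydrogenase FPKM in wild-type and 85.9% and 85.5% in Foxn3KO libraries. Pgk1 and Pkm were the only members of their families in the table. These shares are descriptions: with 2 libraries a group no exact test can pass. The FPKM rest on the authors' lengths. On counts without length, the difference in share between the groups was 8.82 in place of 5.91 percentage points for Pfkl, -2.64 in place of -4.46 for Eno1 and 2.34 in place of 4.58 for Eno4.

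**Figure D3:**
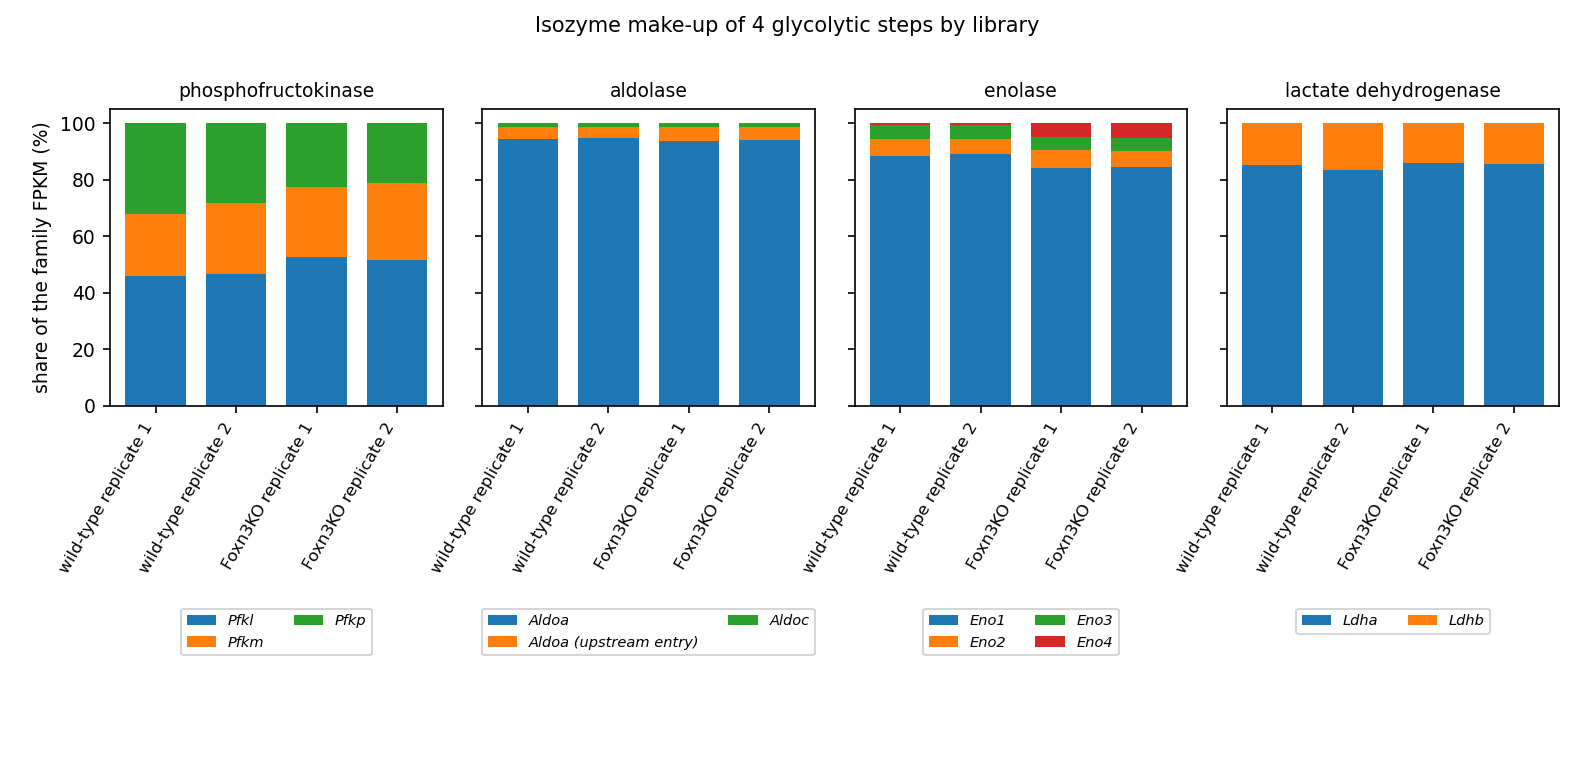
Share of each isozyme in the summed FPKM of its family (stacked bars, percent) in each library, for 4 glycolytic steps. Pfkp takes 32.0% and 28.4% of phosphofructokinase in the wild-type and 22.6% and 21.1% in the Foxn3KO libraries, and Aldoa and Ldha keep most of their families in all libraries.

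In glucose and lactate transport, 3 of 15 tested genes were called, each lower in Foxn3KO libraries, and the list median was -0.17 on the log2 scale. The share called, 20%, was near the 21.9% of all tested genes called in either direction, while 9.66% of all tested genes were called lower. Both Foxn3KO libraries lay below both wild-type libraries for 10 of the 15 and above them for 1. Among all tested genes, 30.5% lay below and 29.9% above. The log2 fold change was negative for 13 of the 15 and positive for 2. Slc2a1, the GLUT1 transporter that brings glucose into the retina, had 683 and 718 CPM in wild-type and 567 and 574 CPM in Foxn3KO libraries (log2 fold change -0.30, edgeR adjusted p = 3.43e-05). Slc16a3, a lactate exporter, changed by -0.21 (edgeR adjusted p = 0.00184) and lost its call with Foxn3KO replicate 2 left out (adjusted p = 0.0627). The glucose transporter gene Slc2a8 changed by -0.34 (edgeR adjusted p = 0.0147) and lost its call in DESeq2 and with Foxn3KO replicate 1 left out, where it was -0.21 (adjusted p = 0.290). Slc2a3, Slc16a1 and the transporter chaperone Bsg had log2 fold changes of -0.13, -0.12 and -0.041 and did not pass. Pigment epithelium also uses Slc2a1, and 4 of its 8 tested markers were called lower, with Pmel at 27.2 and 41.2 against 18.1 and 20.3 CPM; Rpe65 was not analysed here. Their part in the transporter result was not tested.

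Among the 14 regulators of glycolytic and pyruvate flux, Pdk1 (-0.24) and Pdp1 (-0.22), which act on pyruvate dehydrogenase from opposite sides, were lower and the AMP-activated kinase subunit gene Prkaa1 (0.21) was higher, 21.4% called in all and near the background. All 3 calls were lost in DESeq2, and those of Pdp1 and Prkaa1 also with wild-type replicate 1 or either Foxn3KO library left out. Pfkfb3, which makes the activator of phosphofructokinase, did not pass (log2 fold change -0.15, edgeR adjusted p = 0.0944; with the replicate number as a term -0.15, adjusted p = 0.0400). It was called, at -0.23, with wild-type replicate 1 left out (edgeR adjusted p = 0.00019). Of the 8 genes of mitochondrial pyruvate entry and the 3 of gluconeogenesis that were tested, 0 passed. In the pentose phosphate pathway 3 of 8 rose, Taldo1 (0.20), Tkt (0.18) and Pgd (0.14), and Rpe (-0.18) fell, beside 12.3% of all tested genes called higher and 9.66% lower, and 17.1% higher among the abundant genes. In glycogen metabolism 1 of 12 passed, the phosphorylase gene Pygb (0.17). With either Foxn3KO library left out, all 5 of these calls were lost, and Pgd, Rpe and Pygb also lost theirs in DESeq2, Pgd with total count scaling too. The Rpe call was further lost with wild-type replicate 1 left out, in limma-voom and in the earlier edgeR fit.

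The hypoxia response is known to drive glycolytic genes. The transcriptional regulators of glycolysis that were called were lower, while hypoxia response genes outside glycolysis were called in both directions. Hif1a had 399 and 401 CPM in wild-type and 374 and 382 CPM in Foxn3KO libraries and did not pass (log2 fold change -0.082, edgeR adjusted p = 0.163), though it did with either wild-type library left out (adjusted p = 0.0368 and 0.0466). The 16 tested transcriptional regulators of glycolysis included Myc family genes and Txnip beside regulators of the hypoxia response. Of these 16, 4 were called, each lower: the oxygen sensors Egln3 (-0.48) and Egln1 (-0.19), Mycl (-0.18) and Hif1an (-0.16). This share, 25.0%, was near the 21.9% of all tested genes called in either direction, while 9.66% of all tested genes were called lower. Of the 16 log2 fold changes, 9 were negative and 7 positive. Myc, Mycn and Txnip had log2 fold changes of 0.19, 0.076 and 0.023 and did not pass, Myc doing so at 0.47 only with wild-type replicate 2 left out (edgeR adjusted p = 0.0195). The calls of Egln1, Mycl and Hif1an were lost with either Foxn3KO library left out, that of Hif1an also in DESeq2 and with wild-type replicate 1 left out. Of 13 tested hypoxia response genes outside glycolysis 4 were lower, Bnip3 (-0.52), Vegfa (-0.36), P4ha2 (-0.30) and Ddit4 (-0.20). P4ha2 and Ddit4 lost their calls with either Foxn3KO library left out, P4ha2 also in DESeq2, and Ddit4 also with wild-type replicate 1 left out, at -0.11. Ndrg1 (0.16) and P4ha1 (0.19), named after their values were seen, were higher, so 46.2% of this list was called. The calls of Ndrg1 and P4ha1 were lost with Foxn3KO replicate 1 left out. Bnip3 and Vegfa were highest in wild-type replicate 1, at 141 and 382 CPM against 115 and 337 in wild-type replicate 2, and both kept their calls without it, at -0.37 and -0.27. Over the 103 tested genes of these lists, 26 were called by edgeR and 15 by DESeq2. The edgeR share lay between the 21.9% of all tested genes and the 31.2% of the abundant ones.

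**Figure D4:**
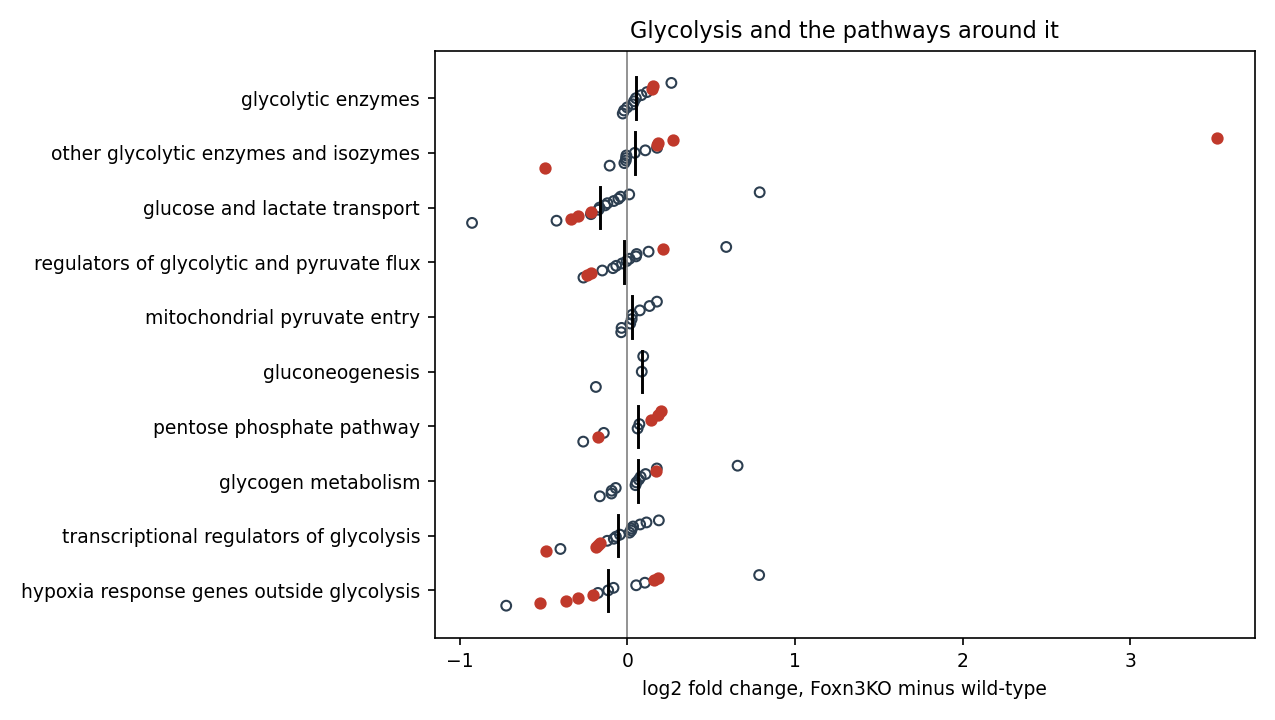
log2 fold change (horizontal axis, Foxn3KO minus wild-type) of each tested gene in the 10 lists with more than 1 gene; filled red points were called by edgeR, open points were not, and the black bar is the list median. The glycolytic enzymes lie close to 0, the point at 3.52 is Eno4, and the median of glucose and lactate transport is -0.17.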

How the data were processed

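RNA of 4 retinas was sequenced with a strand-specific kit and adaptors carrying molecular identifiers, per the labels' protocols. The authors deposited 1 table of raw counts for each gene in every library; the submitters' processing notes name mm39 and DESeq2. Aligner, counting tool, strand use and duplicate removal are not given in the sources used here. The FPKM values, computed by the authors per the file headers, were used for levels between genes. The authors' own log2 fold changes and adjusted p-values, also deposited, were quoted only as theirs.

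From 18471 gene entries (1 repeated identifier dropped), 17300 passed filterByExpr. After TMM scaling, a quasi-likelihood model with a genotype term was fitted in edgeR 4.0.16 (R 4.3.3), tests were two-sided, and p-values were adjusted by Benjamini and Hochberg's method across the tested genes. Intervals are at 95%, from the fold change and its standard error. The script was tested on simulated data. Groups came from the labels. P-values rest on the spread between 2 embryos a group, and the variance estimate of each gene also drew on the other tested genes. A limit of 3 counts is 0.102 to 0.133 CPM and covers counting error only; at the members' counts the spread between embryos is the limit.

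The members, the pathway lists, the marker lists and the tests were chosen with earlier results of these data known. Named genes were the members, a fixed set of isozymes, transporters and regulators, and up to 4 called genes per list with the largest change and a mean of at least 1 CPM. Alternatives were other scalings, filters and tools (DESeq2 1.42.0, limma-voom in limma 3.58.1), the replicate number as a term, and each library left out. Coordinates are given only for the printed upstream windows, on GRCm38.p6, since no mm39 reference was used here. Not reported here are 1 further gene and the values that need it. Figures were drawn with matplotlib 3.10.9.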

Additional observations from a re-analysis of the deposited data

How the results depend on the processing

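The calls of Pfkl and Ldha held under RLE and total count scaling, both other filters, DESeq2, limma-voom and the replicate block; the earlier edgeR fit left 1 member called, Pfkl. Over these settings, 87 of 88 member values kept direction and side of the threshold. Total count scaling moved the member median to 0.030, with the median of all genes at -0.025. DESeq2 called 2433 genes in all and 15 in the pathway lists; the cause was not tested. Replicate numbers gave no pairing, as deviations of same-numbered libraries correlated at -0.0083. A fit with the replicate block called 4222 genes, including 3792 of the 3795, and 2 members, and added Pfkfb3.

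When a Foxn3KO library is left out, the wild-type pair alone gives the spread for every gene. Leaving out any 1 library leaves a lone sample assumed to vary like the others. Calls then ranged from 2323 to 5067 over all genes, 0 to 5 among members and 9 to 34 in the pathway lists, and the member median from 0.036 to 0.091. Values whose sign turned ranged from -0.065 to 0.18 for Hk1, -0.083 to 0.046 for Pgk1, -0.014 to 0.012 for Gpi1, -0.023 to 0.0094 for Gapdh, -0.078 to 0.070 for Tpi1, -0.26 to 0.058 for Aldoc, -0.056 to 0.037 for Ldhb, -0.037 to 0.47 for Myc, -0.018 to 0.071 for Txnip, -0.026 to 13.98 for Ddx3y and -0.16 to 13.67 for Kdm5d. Among other named genes, the other settings gave 16 weaker and 7 stronger results of 332.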
